A study of Rattus norvegicus with 6 samples.

Results

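The mRNAs of the proteasome were followed across 6 libraries of rat liver. The group was taken by symbol, as every locus whose name begins with Psm, a letter from a to g and a digit. The rule found 47 of the 32158 loci that carry a symbol, namely 18 of the core particle (Psma and Psmb), 21 of the base and lid (Psmc and Psmd) and 8 activators or assembly factors (Psme, Psmf and Psmg). Of these, 44 had a mean of at least 1 FPKM (fragments per kilobase of transcript, scaled to the number of mapped fragments) over the libraries and were compared with one another and with the 10201 loci that met the same limit, of which they are part. The 3 left out were Psma8, Psmb11 and Psmg4. One symbol of the rule, Psmc3ip, belongs to a recombination factor and not to a proteasome subunit, and it was kept because its name matches. Psmb5, a catalytic subunit, was listed only on a locus merged with a second gene model and was therefore outside the rule.

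The proteasome degrades proteins that carry a ubiquitin tag. Its barrel-shaped core is built from rings of alpha subunits (Psma), which gate the entrance, and beta subunits (Psmb), of which a few cut the peptide chain. A ring of ATPases (Psmc) in the base unfolds the substrate, the non-ATPases (Psmd) of base and lid bind and remove ubiquitin, and alternative caps (Psme) or dedicated chaperones (Psmg and some Psmd) open the core or help to put it together. In liver the complex turns over a large share of the cell's short-lived proteins, and immune signals exchange the catalytic subunits for Psmb8, Psmb9 and Psmb10, which form the immunoproteasome that prepares peptides for display to T cells.

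Obesity-prone Sprague Dawley rats received the CD (control diet, TD 08485) or, in the other group, the WD (Western diet, TD 88137, rich in fat and sucrose) for 2 weeks, and were killed after a 16 h fast and 1 h of refeeding on the same diet. RNA came from the left lobe of the liver, either as total RNA or from a light fraction (mRNAs carrying up to 3 ribosomes) and a heavy fraction (4 or more ribosomes) of a sucrose gradient. RNA of 3 rats was pooled for each library, so that each combination of diet and RNA is 1 library, no difference has a replicate check, and no p-value is given. The libraries are called CD total, WD total, CD light, WD light, CD heavy and WD heavy.

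For 36 of the 47 members, and 35 of the 44 compared, the number of fragments behind each FPKM value could be inferred from the values themselves. Loci with such numbers held between 115946 fragments in CD heavy and 257756 in WD light, and the depth of WD light was 2.34 times that of CD heavy. Intervals given below are 95% intervals for the counting of fragments only. They compare libraries and not diets, since neither the rats nor the library preparation was repeated and reads multiplied by PCR are not independent molecules. Hepatocyte markers were all detected, with albumin (Alb) at 47108 FPKM in CD total and 43677 FPKM in WD total. The 8 markers of Kupffer cells and macrophages were each higher in WD total than in CD total (beside 51.1% of loci). They summed to 89.3 FPKM in CD total and 123 FPKM in WD total. Some of these differences were slight or rested on few fragments. Vsig4 had 8 fragments in each of these libraries, Clec4f 33 in CD and 35 in WD, and Cd68 6 and 14. The 11 markers of lymphocytes and natural killer cells summed to between 4.78 and 13.7 FPKM in the 6 libraries, and Cd3d, Cd3g and Cd79a were at 0 in all of them. Markers of red blood cells summed to 105 FPKM in CD light and 543 FPKM in WD light, against 55.8 and 31.0 FPKM in CD and WD total RNA. In the light fraction the 4 globin genes were higher in WD, such as Hbb (13.9 and 242 FPKM). Alas2, the other marker, was lower, at 19.7 and 7.18 FPKM (24 and 19 fragments). Markers of endothelium summed to 58.8 and 67.5 FPKM in CD and WD total RNA. In pooled tissue, fewer cells of a type and less RNA per cell cannot be told apart.

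Proteasome genes are known targets of the transcription factors NRF1 and NRF2 (Nfe2l1 and Nfe2l2), which bind antioxidant response elements. The core of that element was searched as TGACNNNGC on either strand of the RefSeq promoters (rat assembly GRCr8, 250 bases before to 50 after each start). It was found in 7 of the 42 members that have a promoter in that set (16.7%), beside 12.1% of all 33469 promoters. The matches closest upstream of a start site are shown with 10 bases on either side, the matched letters in capitals, 5′ to 3′ on the strand of the gene, so that a reader can see what the search found in a core alpha subunit, in core beta subunits and in an activator.
Psma3, chr6:95219727-95219755, plus strand of the genome: tctgtggcctGCCGGGTCAgcaccatgag
Psmb2, chr5:144254980-144255008, plus strand: cccgcgccaaTGACCGGGCggtcgcatat
Psmb6, chr10:55737854-55737882, plus strand: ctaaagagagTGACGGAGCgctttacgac
Psme4, chr14:108706578-108706606, plus strand: ggagaaagccGCTGGGTCAcctcctcgcc
In Psma3 and Psme4 the element reads from the opposite strand. A match is a description of these letters and not a site of binding, and the share among members lay near that of all promoters. The other members with a match were Psmd1, Psmd3 and Psmd9.

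The proteasome mRNAs were more abundant than most mRNAs of the liver. The median level of the 44 members was 24.5 FPKM in CD total and 25.1 FPKM in WD total, where the 10201 loci had medians of 6.36 and 6.40 FPKM. In the light fraction the members' median was 20.8 FPKM (CD) and 23.1 FPKM (WD), and in the heavy fraction it was 23.3 FPKM (CD) and 32.5 FPKM (WD). The levels of the core mRNAs were spread widely, although the standard subunits meet in fixed proportions in the particle. Without the immunoproteasome subunits, the highest core level was 12.9 times the lowest level above 0 in CD total and 12.4 times in WD total. The lowest level was that of Psmb6 in CD total, on 4 fragments. In WD total Psmb6 was at 0, and the lowest level above 0 was that of Psma6, with Cufflinks bounds of 0 and 15.3 FPKM. Both ratios therefore rest on genes that were measured poorly. The order of levels was nearly the same under both diets (Spearman's rho of 0.967 across the 44 members between CD total and WD total, a description across genes, which are not replicates).

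**Figure D1:**
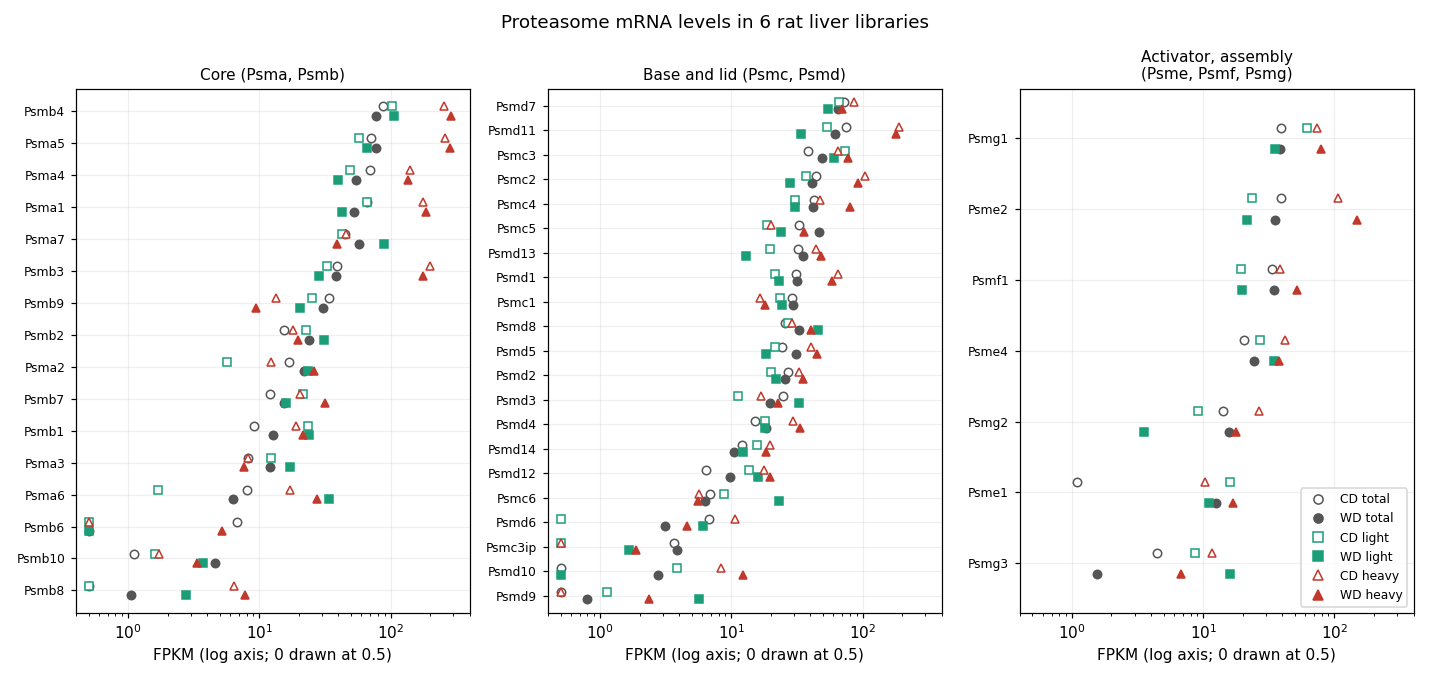
Level of each of the 44 proteasome mRNAs in FPKM (x axis, log scale, values of 0 drawn at 0.5) in the 6 libraries, by class and ordered by mean level in total RNA. Open symbols are CD and filled symbols WD, circles total RNA, squares the light and triangles the heavy fraction; each symbol is 1 library. The triangles of Psmb4, Psma5, Psma4, Psma1 and Psmb3 stand to the right of their circles and squares, whereas those of Psmb9 stand to the left.

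Among the alpha subunits, Psma5 (chr2:211050359-211073714 in Rnor_6.0, the build of all gene positions given here) was listed at 71.4 FPKM in CD total, 78.1 in WD total, 57.0 in CD light, 66.3 in WD light, 262 in CD heavy and 284 FPKM in WD heavy. Psma1 was at 66.5 and 52.6 FPKM in CD and WD total, 65.7 and 42.9 FPKM in the light and 175 and 188 FPKM in the heavy fraction. Both therefore had their highest values in the heavy fraction under either diet, as did Psma4, at 141 (CD) and 135 FPKM (WD) in that fraction and 49.2 and 39.6 FPKM in the light one. Psma7, also an alpha subunit, did not share this order. It was at 44.9 and 57.1 FPKM in CD and WD total, 42.6 and 89.8 FPKM in the light and 45.8 and 39.1 FPKM in the heavy fraction. Lower in level, Psma6 was at 8.07 and 6.29 FPKM in total RNA and Psma3 at 8.14 and 12.2 FPKM. Psma8, an alpha subunit of the testis, was at 0 in 4 libraries and had a mean of 0.17 FPKM.

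The structural beta subunits included the most abundant member, Psmb4 (chr2:196043617-196046311), at 87.3 FPKM in CD total, 77.1 in WD total, 102 in CD light, 106 in WD light, 253 in CD heavy and 287 FPKM in WD heavy. Psmb3 was at 39.3 and 38.2 FPKM in total RNA, 32.9 and 28.3 FPKM in the light and 201 and 177 FPKM in the heavy fraction. The separation of its fractions was thus wider than that of Psmb4 in both diets. Psmb1 and Psmb2 lay lower and showed no such separation, Psmb2 being at 15.4 and 24.1 FPKM in total RNA, 22.5 and 31.0 FPKM in the light and 18.1 and 19.6 FPKM in the heavy fraction.

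Of the constitutive catalytic subunits, Psmb7, which carries the trypsin-like activity, was at 12.1 FPKM in CD total, 15.4 in WD total, 21.6 in CD light, 16.1 in WD light, 20.3 in CD heavy and 31.5 FPKM in WD heavy. Psmb6, the caspase-like subunit, was listed at 6.78 FPKM in CD total (4 fragments), at 5.20 FPKM in WD heavy (2 fragments) and at 0 in the remaining libraries. As Psmb6 is part of every standard core, a listed 0 need not mean absent mRNA, and no fold between libraries is given for it. RefSeq names 2 pseudogenes after each of Psmb6 and Psmb7, and reads shared with such copies may have been divided in the authors' counting. The merged locus that holds Psmb5, the chymotrypsin-like subunit (chr15:33259042-33263659), was at 185 FPKM in CD total, 217 in WD total, 28.6 in CD light, 50.8 in WD light, 611 in CD heavy and 128 FPKM in WD heavy. Its reads cannot be assigned to Psmb5 alone, and it enters no count.

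The immunoproteasome subunits were unequal. Psmb9 (chr20:3973419-3978845) was at 34.2 FPKM in CD total, 30.7 in WD total, 25.0 in CD light, 20.5 in WD light, 13.4 in CD heavy and 9.37 FPKM in WD heavy. Its neighbor in the major histocompatibility complex, Psmb8 (chr20:3990612-3993769), was listed at 0 in CD total and CD light, at 1.05 FPKM in WD total, 2.76 in WD light, 6.43 in CD heavy and 7.72 FPKM in WD heavy. Psmb10 lay between 1.10 FPKM in CD total and 4.60 FPKM in WD total, on 1 to 5 fragments per library. In total RNA, Psmb9 was above Psmb7 and Psmb6 under both diets while Psmb8 and Psmb10 were below Psmb7, and Psmb9 was lower in the heavy than in the light fraction under both diets. Psmb11, the beta subunit of the thymic cortex, was at 0 in all 6 libraries.

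The 6 ATPases of the base form 1 ring, and 5 of them had similar levels in total RNA. In CD total, Psmc1 was at 29.1, Psmc2 at 43.9, Psmc3 at 38.7, Psmc4 at 42.4 and Psmc5 at 33.0 FPKM, and in WD total the same genes were at 29.8, 41.1, 48.8, 42.1 and 46.3 FPKM. Psmc6 stood apart from its partners at 6.82 and 6.30 FPKM. In the heavy fraction the ring spread out, with Psmc2 at 104 (CD) and 92.5 FPKM (WD), Psmc3 at 65.6 and 78.1, Psmc4 at 47.5 and 80.5, Psmc5 at 20.2 and 35.8, Psmc1 at 16.5 and 18.0 and Psmc6 at 5.68 and 5.54 FPKM.

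Of the non-ATPases, the lid subunit Psmd11 had the highest mean over the 6 libraries, at 74.9 FPKM in CD total, 61.3 in WD total, 53.7 in CD light, 33.9 in WD light, 189 in CD heavy and 179 FPKM in WD heavy. Psmd7, which pairs with the deubiquitinase, was at 71.9 and 65.3 FPKM in total RNA and above Psmd11 in WD total and in both light libraries, and that deubiquitinase itself, Psmd14, at 12.0 and 10.6 FPKM. Partners in the lid thus differed in level as well. The scaffold Psmd2 was at 27.1 and 25.6 FPKM in total RNA and the ubiquitin receptor Psmd4 at 15.3 and 18.2 FPKM, neither of which moved past a threshold in any diet comparison. The chaperones that build the base were present at very different levels, Psmd5 at 24.3 and 31.4 FPKM in total RNA, but Psmd9 at 0 and 0.801 FPKM and Psmd10 at 0 and 2.77 FPKM. Psmc3ip was at 3.69 and 3.86 FPKM in total RNA and at 0 in CD light and CD heavy.

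Among activators, Psme1 and Psme2 form the 11S cap that interferon induces, and their genes lie side by side on chromosome 15 (chr15:34256070-34263224 and chr15:34265556-34269851). Psme2 was at 39.2 FPKM in CD total, 35.4 in WD total, 23.6 in CD light, 21.7 in WD light, 106 in CD heavy and 149 FPKM in WD heavy. Psme1 was at 1.09, 12.6, 16.01, 11.0, 10.3 and 16.8 FPKM in the same order. The partners of the cap therefore differed most in CD total, where the Cufflinks bounds of Psme1 were 0 and 6.92 FPKM. Psme4, the cap also called PA200, was at 20.4 and 24.5 FPKM in total RNA, and Psmf1, which inhibits the core, at 33.3 and 34.8 FPKM. Psme3 was not analysed here. The chaperones of the core ranged from Psmg1, at 39.2 and 38.7 FPKM in total RNA, over Psmg2, at 14.1 and 15.7 FPKM, and Psmg3, at 4.43 and 1.55 FPKM, to Psmg4, which was at 1.57 FPKM in WD light and at 0 elsewhere.

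Ribosome density, that is heavy over light FPKM of a gene, was then examined within each diet. Proteasome mRNAs leaned toward the heavy fraction under both. The median log2 density of the 44 members was 0.61 in CD and 0.59 in WD, whereas it was 0.01 and 0.00 over all loci compared. In CD, 32 members were higher in the heavy fraction (beside 50.2% of loci) and 10 lower (beside 46.2%), and in WD 30 were higher (beside 48.5%) and 14 lower (beside 50%). A ratio of at least 1.5, a limit the study set for the densities of one diet over the other and here applied within a diet, was met by 23 members in CD (52.3%, beside 32.9% of loci) and by 23 in WD (52.3%, beside 31.4%). A ratio of at most 0.75 was met by 6 members in CD (13.6%, beside 36.6% of loci) and by 9 in WD (20.5%, beside 38.5%). Both diets share no library in this comparison, and 18 members (40.9%) had a density of at least 1.5 in each of them, where 19.6% of loci did. The share was higher among abundant mRNAs, and with a mean of at least 10 FPKM there were 16 of 35 members (45.7%) beside 26.3% of 4069 loci. The hepatocyte markers, very abundant mRNAs as well, had median log2 densities of 1.17 in CD and 0.94 in WD.

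The 18 mRNAs comprised Psma1, Psma4, Psma5, Psmb3, Psmb4 and Psmb8 of the core, Psmc2, Psmc4, Psmd1, Psmd2, Psmd4, Psmd5, Psmd10, Psmd11 and Psmd13 of the base and lid, and Psme2, Psmf1 and Psmg2. Their median level in total RNA was 35.7 FPKM, and that of the other 26 members was 12.5 FPKM. Psmb8 and Psmd10 belong to them through values that rest on libraries at 0 or on very few fragments. Fewer members, 5 in all (11.4%, beside 24.2% of loci), had a density of at most 0.75 in both diets, namely Psma3, Psmb9, Psmc1, Psmc6 and Psmd9. Psmd9 belongs to them through 1 fragment in CD light and 0 in CD heavy.

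**Figure D2:**
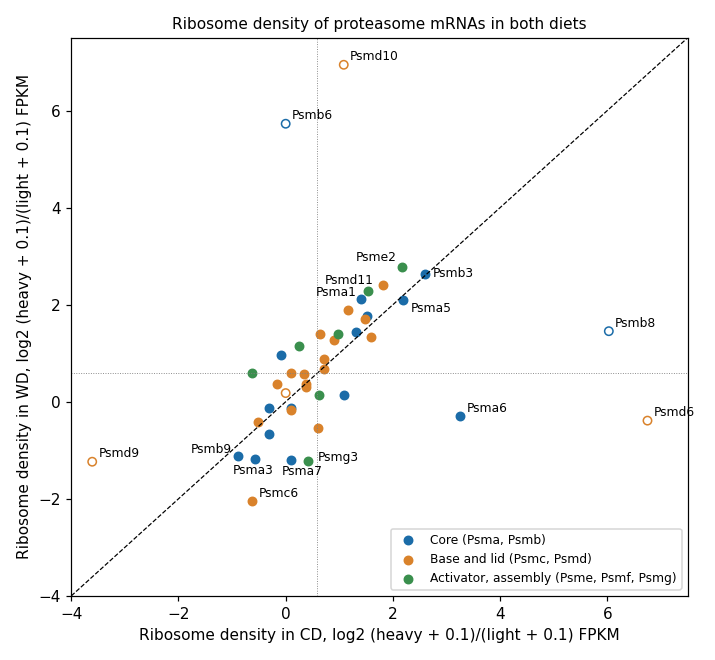
Ribosome density of the 44 proteasome mRNAs in CD (x axis) and WD (y axis), as log2 of heavy over light FPKM after adding 0.1, with 1 point per gene colored by class. Open points have a library at 0 and depend on the added 0.1; dotted lines mark a ratio of 1.5 and the dashed line equal densities. Of the 44 points, 18 lie in the upper right beyond both dotted lines.

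Where fragments could be counted, 12 of 35 members (34.3%) had a density interval above 1 in both diets, beside 9.35% of 6246 loci, and 0 had one below 1 in both, beside 7.64%. In single diets the interval lay above 1 for 13 of 34 members in CD (38.2%, beside 13.6%) and for 15 of 35 in WD (42.9%, beside 17.6%). It lay below 1 for 0 members in CD (beside 12.7%) and for 2 in WD (5.71%, beside 16.9%), Psma7 and Psmc6. An interval excludes 1 more readily where a gene has more fragments. The members had a higher median level than the loci (24.5 against 6.36 FPKM in CD total). No share of loci matched for level was computed for the intervals, here or below, so the contrast in these shares is partly one of level. Psmb3 had a high density in both diets, 6.09 in CD (3.57 to 11.1) and 6.21 in WD (4.06 to 9.81). Psme2 was at 4.49 (2.77 to 7.63) and 6.81 (4.79 to 9.94), and Psma5 at 4.59 (3.18 to 6.80) and 4.28 (3.30 to 5.59). The intervals of these genes overlap, so that their order among themselves is not resolved by the counts. At the other end, Psmb9 was at 0.54 in CD (0.18 to 1.42) and 0.46 in WD (0.14 to 1.21), both intervals including 1. Psmc6 had a density of 0.65 (0.25 to 1.57) in CD and 0.24 (0.11 to 0.47) in WD.

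Across members, the densities of the diets went together with a Pearson r of 0.279 and a Spearman rho of 0.602 (n = 44 genes), and for the 38 genes with no library at 0 these were 0.683 and 0.718. Over all loci compared r was 0.366 and rho was 0.536. The points share 4 libraries and their depths, and genes are not independent, so these values are descriptive.

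**Figure D3:**
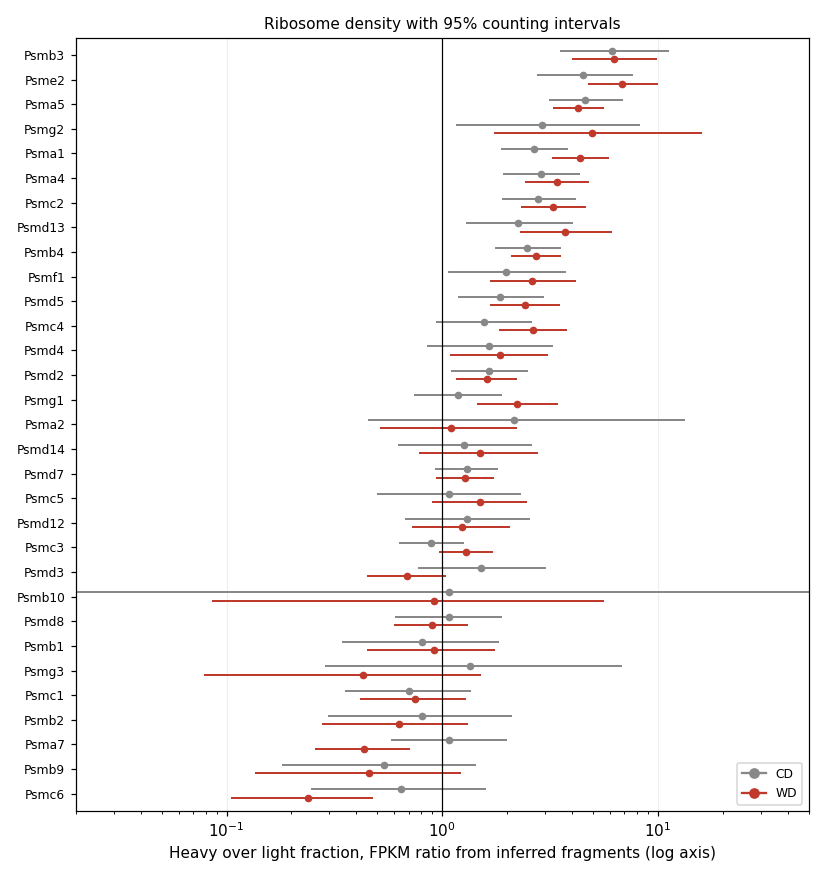
Heavy over light ratio (x axis, log scale) of the 31 members with fragment numbers and no library at 0, ordered by their summed log2 density, in CD (gray) and WD (red). Points are ratios of FPKM and bars 95% exact counting intervals, cut at the axis limits for Psmb10; the black line marks 1. The bars of the upper members, from Psmb3 to Psmb4, lie above 1 in both diets.

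The classes had similar median densities in CD but unequal ones when their fragments were pooled. The median log2 density was 0.60 for the core, 0.60 for the base and lid and 0.63 for activators and assembly factors in CD, and 0.55, 0.58 and 1.16 in WD. Summed over the 36 members with fragment numbers, the heavy to light ratio was 1.91 (1.76 to 2.09) in CD and 1.98 (1.85 to 2.12) in WD. For the 13 core members it was 2.65 (2.29 to 3.07) in CD and 2.57 (2.30 to 2.87) in WD, for the 18 base and lid members 1.44 (1.28 to 1.63) and 1.45 (1.32 to 1.60), and for the 5 activators and assembly factors 2.27 (1.75 to 2.95) and 3.52 (2.86 to 4.35). The sums are led by abundant genes such as Psma5, Psmb4 and Psma1, and the core holds both high and low densities, so that its median lay in a gap between these and moved easily with the genes kept. With a mean of at least 10 FPKM, for instance, the core median was 1.09 in CD and 0.13 in WD.

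The WD to CD comparison of total RNA set the single library of each diet beside the other. Proteasome mRNAs were close to equal in these libraries. The median log2 change of the 44 members was 0.06, with 25 higher and 19 lower in WD, and over all loci it was 0.02, with 51.1% higher and 47% lower. The medians of the classes were 0.24 (core), 0.03 (base and lid) and 0.06 (activators and assembly factors), and by summed fragments that of the core was -0.045, so its direction was not stable. A ratio of at least 1.5 was met by 7 members (15.9%, beside 17.7% of loci) and one of at most 0.75 by 3 (6.82%, beside 22.7%), which left 34 members (77.3%) between the limits, beside 59.7% of loci. Among genes with a mean of at least 10 FPKM, 32 of 35 members (91.4%) stayed between them, beside 75% of loci. No interval of the 35 members excluded 1, where 2.91% of loci had one above and 2.96% one below 1. The summed fragments of 36 members gave a WD to CD ratio of 1.02 (0.942 to 1.10).

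Of the 10 members past a threshold, 7 had a mean below 10 FPKM, and several were listed at 0 in a library. Psmb8, Psmd9 and Psmd10 were at 0 in CD total and at 1.05, 0.801 and 2.77 FPKM in WD total, and Psmb6 was at 0 in WD total, so that these have no fold. Without the members that have a library at 0, 4 remained past 1.5 and 1 past 0.75. Psme1 had the largest ratio of the genes above 0 in both libraries, 1.09 against 12.6 FPKM, but the Cufflinks bounds of these values reach from 0 to 6.92 and from 0 to 36.7 FPKM. Its partner Psme2 was at 39.2 and 35.4 FPKM and did not share that difference. Psmb10 rested on 1 and 4 fragments, and its interval ran from 0.41 to 206. Psmb2, at 15.4 and 24.1 FPKM, and Psmd12, at 6.43 and 9.83 FPKM, were just beyond a ratio of 1.5, with intervals of 0.71 to 3.57 and 0.72 to 3.37. The lower ones besides Psmb6 were Psmd6, a lid subunit at 6.79 and 3.15 FPKM (9 and 4 fragments), and Psmg3, at 4.43 and 1.55 FPKM (3 and 1 fragments).

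**Figure D4:**
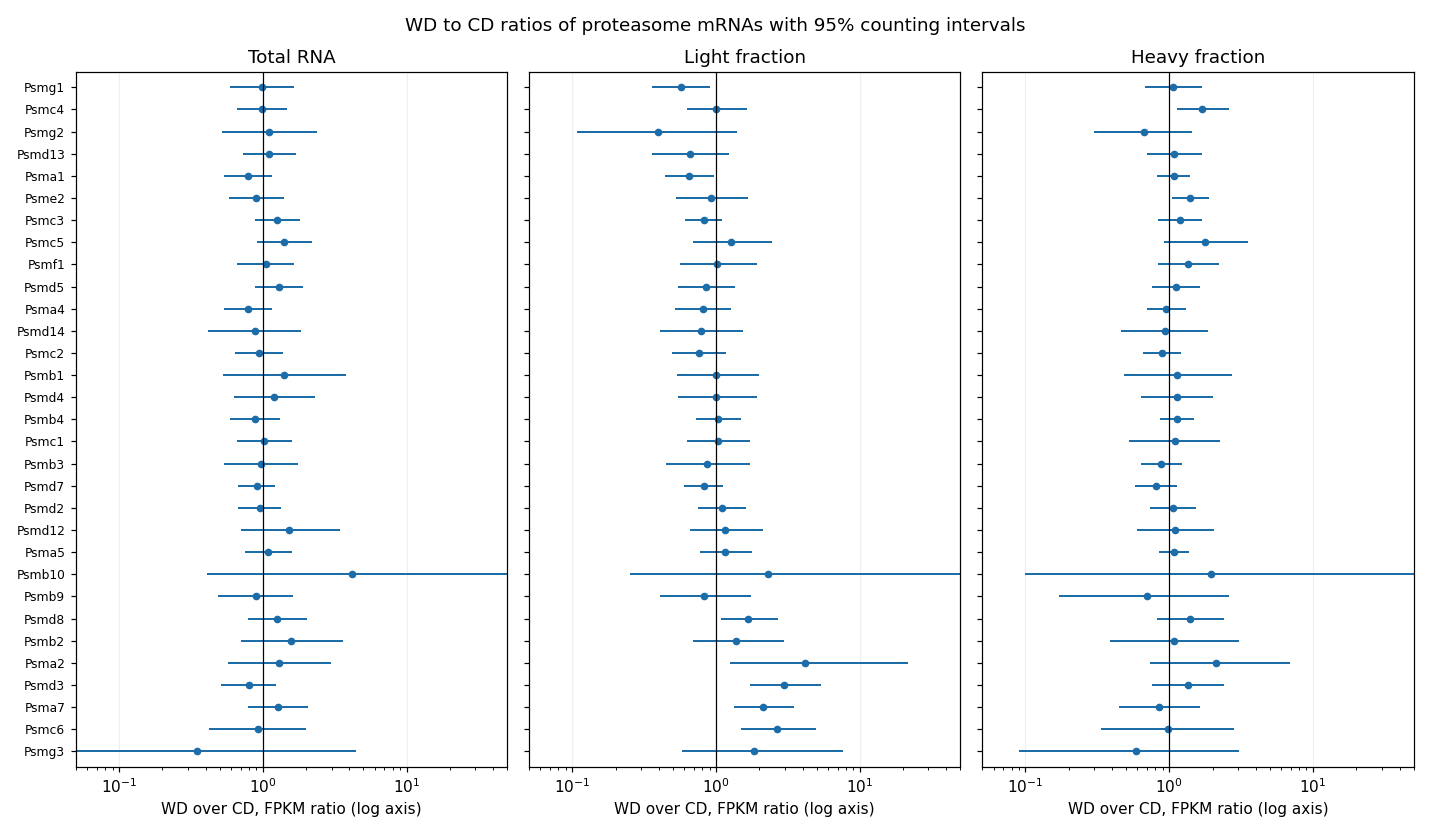
WD over CD ratio (x axis, log scale) of the same 31 members in total RNA (left), the light fraction (middle) and the heavy fraction (right), ordered by their change in ribosome density, lowest at the bottom. Points are ratios of FPKM and bars 95% exact counting intervals, cut at the axis limits for Psmb10 and Psmg3. All bars of total RNA cross 1, whereas those of Psmd8, Psma2, Psmd3, Psma7 and Psmc6 lie above 1 in the light fraction and those of Psmg1 and Psma1 below it.

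The fractions were compared between diets separately. In the light fraction the median log2 change was 0.03 over the members (0.02 over all loci), with 25 members higher (beside 51% of loci), 18 lower (beside 47.2%), 12 members at a ratio of at least 1.5 (27.3%, beside 25.9% of loci) and 8 at or below 0.75 (18.2%, beside 26.8%). The interval lay above 1 for 6 of 34 members (17.6%, beside 7.72% of loci) and below 1 for 2 (5.88%, beside 7.69%). Those above were Psma2, Psma7, Psmc6, Psmd3, Psmd6 and Psmd8, a mixture of alpha, ATPase and lid subunits, and those below were Psma1 and Psmg1. Psmd3, a lid scaffold subunit, went from 11.2 FPKM in CD light to 33.0 FPKM in WD light (17 and 109 fragments), a ratio of 2.93 (1.76 to 5.25), while it was at 24.7 and 19.7 FPKM in total RNA. Psmc6 went from 8.81 to 23.2 FPKM (15 and 86 fragments), a ratio of 2.62 (1.51 to 4.91), and Psma2 from 5.70 to 23.6 FPKM on 3 and 27 fragments. The ratio of Psmd8 was 1.67 (1.09 to 2.65). None of these had an abundance interval that excluded 1. The WD light library is also the deepest one and has the most globin mRNA, and the part of either in these ratios was not tested.

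The highest light fraction ratio of a gene above 0 in all libraries was that of Psma6 (chr6:76174451-76205426), which was at 1.69 FPKM in CD light and 34.0 FPKM in WD light, at 8.07 and 6.29 FPKM in total RNA and at 17.0 and 27.7 FPKM in the heavy fraction. The Cufflinks bounds of the light values run from 0 to 6.19 FPKM in CD and from 6.26 to 61.7 FPKM in WD, and no fragment numbers were inferred. RefSeq names 5 pseudogenes after Psma6, more than for any member but Psmb3, and whether reads were shared with them was not tested. Among all members, 18 have a pseudogene of their name, 44 in total. The 17 of these that were compared had a median log2 light fraction change of 0.10 and the 27 without such a copy 0.01, and the median density change was -0.07 with and 0.18 without a copy.

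In the heavy fraction, 29 of 44 members (65.9%) were higher in WD, where 45.1% of loci were, and 15 were lower (34.1%, beside 50.4%). The differences were small, with a median log2 change of 0.13 over the members, 0.15 for the core, 0.14 for the base and lid and 0.09 for activators and assembly factors, against -0.02 over all loci. A ratio of at least 1.5 was met by 10 members (22.7%, beside 21.7%) and one of at most 0.75 by 4 (9.09%, beside 25.8%). The summed fragments were 1471 in CD heavy and 1644 in WD heavy, a ratio of 1.09 (1.02 to 1.17). An interval above 1 was found for 2 of 35 members (5.71%, beside 2.76% of loci) and below 1 for 0 (beside 3.03%). Psmc4, an ATPase, was at 47.5 FPKM in CD heavy and 80.5 FPKM in WD heavy (42 and 73 fragments), a ratio of 1.69 (1.14 to 2.54), with 30.5 FPKM in both light libraries and 42.4 and 42.1 FPKM in total RNA. Psme2 was at 106 and 149 FPKM (88 and 126 fragments), a ratio of 1.40 (1.06 to 1.86). For both genes the intervals of the light fraction and of total RNA included 1. The interval of the density change also included 1, from 0.91 to 3.16 for Psmc4 and from 0.80 to 2.84 for Psme2. A difference between the fractions is therefore not resolved by the counts. The lowest ratios were those of Psmd6, at 10.7 and 4.63 FPKM, Psmg3, at 11.6 and 6.80 FPKM, and Psmg2, at 26.4 and 17.6 FPKM, each with an interval that includes 1.

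The change in ribosome density between the diets combines both fractions and shares their libraries. Its median over the 44 members was 0.15 on the log2 scale, with 25 higher and 19 lower in WD, and -0.02 over all loci (48.3% higher, 50.7% lower). A ratio of at least 1.5 was met by 11 members (25.0%, beside 27.7%) and one of at most 0.75 by 10 (22.7%, beside 36.1%). When every library was rescaled to the same sum, these became 16 and 8, the median 0.46 and the median of all loci 0.28. The medians of the classes were -0.16 (core), 0.18 (base and lid) and 0.60 (activators and assembly factors). That of the core was 0.16 after rescaling, so its sign depends on the scaling, and that of the activators and assembly factors was 0.11 with heavy over total RNA as the density. By summed fragments the WD to CD ratio of densities was 1.04 (0.928 to 1.15) over all, 0.97 (0.81 to 1.17) in the core, 1.01 (0.86 to 1.17) in the base and lid and 1.55 (1.11 to 2.18) in the 5 activators and assembly factors. Of these 5, Psme2, Psmf1, Psmg1 and Psmg2 were higher and Psmg3 was lower in WD.

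Of single genes, the counting interval of the density change excluded 1 for 4 of 34 members, 2 above (5.88%, beside 4.35% of loci) and 2 below (5.88%, beside 3.66%). Psma1 had a density of 2.66 in CD and 4.36 in WD, a change of 1.64 times (1.03 to 2.59). Psmg1, a chaperone of the alpha ring, was at 62.1 and 35.2 FPKM in the light and 73.6 and 78.5 FPKM in the heavy fraction, a change of 1.88 times with a lower bound at 1.00 and an upper one at 3.55. Psma7 had densities of 1.07 in CD and 0.44 in WD, on 24 and 110 fragments in the light and 24 and 21 in the heavy fraction, a change of 0.41 times (0.18 to 0.90). Psma1 and Psma7, alpha subunits of the same ring, thus differed in direction between these libraries, but the shares of members called lay near those of all loci. Psmd6 was at 0 FPKM in CD light and at 6.09 FPKM in WD light (12 fragments), with 10.7 and 4.63 FPKM in the heavy fraction. Psmc6 and Psmd3 had changes of 0.37 (0.11 to 1.26) and 0.46 (0.20 to 1.01), so that their intervals include 1. Psma6, Psmb6, Psmb8, Psmd9 and Psmd10 had larger log2 values in either direction, but each rests on a library at or near 0.

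Outside the complex, 29 of 34 listed symbols of the ubiquitin-proteasome pathway were found and 27 compared. The list covers ubiquitin genes, carriers, regulators and proteasome-bound enzymes. Its median log2 abundance change was -0.07, with 11 higher (beside 51.1% of all loci), 16 lower (beside 47%), 2 at or above a ratio of 1.5 (beside 17.7%) and 1 at or below 0.75 (beside 22.7%). The transcription factor gene Nfe2l1 was at 16.3 and 14.96 FPKM and Nfe2l2 at 31.5 and 34.3 FPKM in total RNA. In the heavy fraction 5 of the 27 were higher in WD (beside 45.1% of loci) and 21 lower (beside 50.4%), with a median of -0.14. The median density change was -0.37, with 3 at or above 1.5 (beside 27.7%) and 13 at or below 0.75 (beside 36.1%). These values lay below those of the complex itself, of which 29 of 44 were higher in the heavy fraction.

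Named by the size of their changes, Uchl5, a deubiquitinase of the proteasome, was at 2.87 FPKM in CD total and 8.25 FPKM in WD total, and Zfand2a, which guides ubiquitinated proteins to the proteasome under stress, at 11.1 and 6.12 FPKM. In the light fraction Zfand2a was at 5.56 and 20.5 FPKM and Usp14, a further proteasome-bound deubiquitinase, at 4.66 and 12.2 FPKM. Their heavy values went the other way, 3.67 and 1.79 FPKM for Zfand2a and 12.2 and 5.96 FPKM for Usp14. Rps27a, which encodes ubiquitin fused to a ribosomal protein, was listed at 0 in CD light and 32.7 FPKM in WD light (15 fragments). It had 1 fragment in each total RNA library and 0 in each heavy library, so it was scarcely measured. Txnl1, a thioredoxin-like protein bound to the proteasome, differed in the opposite direction, at 169 and 70.6 FPKM in the light fraction. Vcp, the segregase that extracts ubiquitinated proteins, had the highest mean of the list and was at 71.4 and 63.9 FPKM in the light and 440 and 485 FPKM in the heavy fraction, a pattern like that of Psmb3 or Psme2. Pomp, which encodes the core maturation protein, was listed at 2.73 FPKM in CD heavy and at 0 elsewhere. For these genes too, a listed 0 need not mean absent mRNA.

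Genes of antigen processing were set beside the immunoproteasome. Of 8 found, 7 were compared, and their median log2 abundance change was 0.20, with 4 higher (beside 51.1% of all loci) and 3 lower (beside 47%). All 7 were higher in WD heavy than in CD heavy (beside 45.1% of loci), with a median of 0.23 beside -0.02 over all loci, and 1 had a ratio of at least 1.5 there (beside 21.7%), Nlrc5, at 1.24 and 2.91 FPKM. B2m, the light chain of class I molecules, was at 1030 and 1333 FPKM in total RNA and 927 and 1086 FPKM in the heavy fraction. Tapbp, the chaperone of peptide loading, was at 42.4 and 35.6 FPKM in total RNA and 97.9 and 138 FPKM in the heavy fraction, where its values went in the same direction as those of Psme2. Tap1, which lies between Psmb8 and Psmb9 in the genome, was at 6.40 and 3.67 FPKM in total RNA, and Tap2 was listed at 0 in all 6 libraries. The markers of Kupffer cells and macrophages, which also express these genes, were higher in WD total by a median of 0.46 on the log2 scale and in WD heavy by 0.42 (6 of 8 higher), and their part in the values of the immune members was not tested.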

How the data were processed

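Total RNA and the light and heavy fractions of sucrose gradients from livers of CD and WD rats were measured in 6 libraries, each pooled from 3 rats and depleted of ribosomal RNA (KAPA RNA HyperPrep with RiboErase). The authors used TopHat to align the reads (genome build Rnor_6.0) and deposited FPKM values of the Cufflinks pipeline, normalized between libraries, with a lower and an upper bound for each; the annotation, the strand setting and the method of normalization are not given in the sources used here.

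Loci were compared where they had a symbol, the status OK and 1 FPKM or more as the mean of the 6 libraries. A change was log2((a + 0.1)/(b + 0.1)) FPKM, a scale that understates changes of low genes. Thresholds were ratios of at least 1.5 or at most 0.75, which the study states for density between diets and which were applied to every ratio here. Fragment numbers were inferred as the whole numbers, within 0.03, that fit the values with a single factor for each library and a single step for each gene, and were kept where the relative Cufflinks bound agreed within 5%, which held for 8761 of 13283 loci above 0 in at least 2 libraries (66.0%). The method was tested on data simulated under these same assumptions. That test does not cover loci where they fail, for instance where reads are shared between gene copies. Intervals are exact Clopper-Pearson for ratios and conditional odds ratios for density change (Python 3.11.15, scipy 1.17.1, numpy 2.4.6, pandas 2.3.3). Multiples of the numbers would give the same FPKM, so they are estimates.

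All members could be named. In the levels the 3 highest and 3 lowest per class were given. Of the 3 highest and 3 lowest changes in each comparison and in the pathway list, only some were given. The heavy values of Psmd9 and the light values of Psmg2, for instance, were left out. Catalytic subunits, ATPases, ubiquitin receptors, activators and chaperones were given at least in total RNA, but not all in the fractions. The genes Txnl1, Rps27a, Vcp, Pomp, Psmd3, Psmd8 and Psma2 were added, some after their values were seen. Members and lists were chosen with earlier results of these data known. Promoters and pseudogene names came from RefSeq (GRCr8), which held all 47 symbols. Alternatives covered pseudocount, filter, scaling, the density measure, the choice of loci and of members, and pooled fragments. Protein lengths and the fractions' alignment route were not examined here.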

Additional observations from a re-analysis of the deposited data

Results flagged for a closer look

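For 4 members the listed WD to CD changes had opposite directions in the light and the heavy fraction, and the counting interval of the difference excluded 1. In the light fraction the interval of each of the 4 excluded 1, but in the heavy fraction it included 1. A move of the heavy fraction in the opposite direction is therefore not resolved by the counts. The log2 change in ribosome density was 0.71 for Psma1, 0.91 for Psmg1, -1.30 for Psma7 and -7.14 for Psmd6. The difference was tested for counting error between single libraries only, not between rats. The value of Psmd6 depends on the added 0.1 FPKM, as the gene was listed at 0 in CD light, and its interval takes that 0 as a count. By the same interval, 5.88% of members lay above and 5.88% below 1, near the 4.35% and 3.66% of loci. A pseudogene of their name is known for 1 of the 4, Psma7, with 3 copies.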

How the results depend on the processing

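Of 241 values recomputed for 21 results under 12 alternatives, 205 were counted as the same, 35 as moved and 1 as reversed. A median was the same if its shift was smaller than the reach of the counting interval of its class's pooled fragments. A count of members was the same within 1.5 times. A change of sign was counted as reversed only where that pooled interval excluded 1. Other medians changed sign without being counted so. The core density change went from -0.16 to 0.16 after rescaling, and the core abundance change from 0.24 to -0.045 by summed fragments. The count of 18 members with a density of at least 1.5 in both diets stayed within that limit under every alternative run for it, but ranged from 12 to 21. It was 12 among the 27 members with no named pseudogene, which lies at the limit of 1.5 times, and 21 with heavy over total RNA. By these limits, all results held with a pseudocount of 1 or 0.01 FPKM, after centring, with symbols on 1 locus only and with the chaperones regrouped. Without a filter, the median log2 density in CD was 0.42 over all members and 0.10 in the core, and in WD 0.067 in the core. With a mean of at least 10 FPKM, the core medians were 1.09 (CD) and 0.13 (WD), 3 members had an abundance ratio of at least 1.5 and 0 one of at most 0.75, and 6 had a density change of at most 0.75. Rescaling every library to the same sum gave median WD densities of 0.90 (all), 0.86 (core), 0.88 (base and lid) and 1.46 (activators and assembly), and median density changes of 0.46, 0.16 and 0.50 for the first 3 of these, while the median density change of all loci went from -0.02 to 0.28. With heavy over total RNA as the density, the CD medians were 0.88 (core) and 1.03 (activators and assembly), the WD medians 0.72 (all), 1.16 (core) and 0.62 (activators and assembly), and the density change of the last class 0.11. By summed fragments, the CD densities were 0.94 (all), 1.41 (core) and 1.18 (activators and assembly), the WD densities 0.99, 1.36 and 1.82, and the core abundance change -0.045.

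Both of the following sets were chosen after seeing the data. Among members with no library at 0, the core density in WD was 0.0023, and 4 and 1 members passed the abundance thresholds. Among members with no named pseudogene, the core density was 0.097 in CD and -0.13 in WD, the latter being the value counted as reversed. In that set the core abundance change was 0.47, and 6 and 5 members passed the density change thresholds. Fewer members enter each of these sets and the stricter filter; for the other moved values the cause was not tested. No paired analysis was possible because each group is 1 library, and for the same reason no library could be left out. The comparison with protein length was not run. Between CD total and WD total the counting interval included 1 for each of the 35 members with fragment numbers. With 1 library per diet, whether the diets differ could not be tested at any depth.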
